A study of Rattus norvegicus with 15 samples.

Results

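The collagens and the small leucine-rich proteoglycans are the structural genes of the extracellular matrix, and their mRNA was followed in rat retinas kept in darkness or exposed to light. The genes were those whose probe sets carry exactly 1 symbol in the array annotation, either a collagen chain symbol (Col, a number, a, a number) or Ogn, Dcn, Lum, Fmod, Bgn, Kera, Aspn or Prelp. Each gene was represented by its brightest probe set over the 15 arrays. This gave 48 genes, of which 41 were collagen chains and 7 were proteoglycans, among 14218 symbols on the array. Kera, the eighth proteoglycan sought, had no probe set of its own. All the retinas came from adult (3 months old) male Long Evans rats, which are pigmented, and all the animals had spent the night in darkness. The 0 ZT dark retinas were taken at 7 am. The 3 ZT dark and 6 ZT dark retinas came from animals left in darkness until 10 am and until hour 13. The 3 ZT light and 6 ZT light retinas came from animals that spent the same 3 or 6 hours under 1000 lux; for the last group the sample title and the study's methods give 6 hours of light, whereas another label gives 3 hours. Each condition had 3 replicas, and no label says that a replica number stood for one animal or one day, and the p-values below therefore cover the variation among these arrays alone, part or all of which may be technical. No gene was deleted and no agent other than light was given.

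Collagens are made of 3 chains wound in a helix. Fibrillar collagens form the fibres of connective tissue and of the vitreous, network collagens form basement membranes, and FACIT collagens decorate the surface of fibres. The small leucine-rich proteoglycans bind to fibrils and set their spacing and thickness. In the eye these genes are best known from the sclera, cornea, vitreous, lens capsule and vessel walls, and from the inner limiting membrane and Bruch's membrane that border the retina, while neurons and photoreceptors make little of them.

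The tissue label was matched by the arrays, as 23 of 25 measured markers of the neural retina lay above the array median on all 15 arrays. The median log2 value was 8.28 to 8.32 on the arrays of replica 1, 8.58 to 8.68 for replica 2 and 8.75 to 8.81 for replica 3, and differences were therefore taken within a replica number. Group ranges compared below pool the 3 replica numbers, so they also hold these offsets and any other difference between numbers. A pair of arrays stood apart in RNA quality. For Actb, the probe set at the 3′ end exceeded that at the 5′ end by 2.10 (log2) for 0 ZT dark replica 1 and 2.40 for 3 ZT light replica 2, against 0.71 to 1.37 on the other 13 arrays. The matrix genes were mostly dim, with 27 of the 48 under the median of all probe sets. Identical values recurred, since 7.29% of the members' values in pairs of arrays with the same number were exactly equal. The members were ordinary in this, as 3.58% to 14.1% of all probe sets had equal values in such pairs. In pairs of different numbers the share of all probe sets was 0.0161% to 0.0902%.

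No collagen and no proteoglycan passed an adjusted p of 0.05 in any of the 7 comparisons (limma with replica number as a block, adjusted over 31042 probe sets). The same test passed 0 to 1 of all probe sets per comparison, 0.00322% at most. The lowest adjusted p of a member by limma was 0.440, in 6 ZT light against 6 ZT dark. At an unadjusted p under 0.05, a count added after the data were seen, 9 members stood higher in 6 ZT light than in 6 ZT dark, 18.8% of the 48 against 5.56% of all probe sets. These were Ogn, Col8a2, Col9a1, Col9a3, Col11a1, Col5a2, Col22a1, Col13a1 and Col24a1. Bgn and Col26a1 stood lower, 4.17% against 2.97% of all probe sets. The median over the members was 0.01, since 26 differences were above 0 and 22 below, and the median of all probe sets was -0.01. Without 6 ZT dark replica 1 the higher count was 6 (4.21% of all probe sets), and without 6 ZT dark replica 2 it was 12 (3.62%). The lower count of 2 became 0 without 6 ZT dark replica 2, where 1.14% of all probe sets were lower. It was also 0 without 6 ZT light replica 2 (1.25%) or replica 3 (1.97%), and 1 without 6 ZT dark replica 3 (2.96%). It became 3, 6.25% of the members, without 6 ZT dark replica 1 (3.03%) and without 6 ZT light replica 1 (6.69%).

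**Figure D1:**
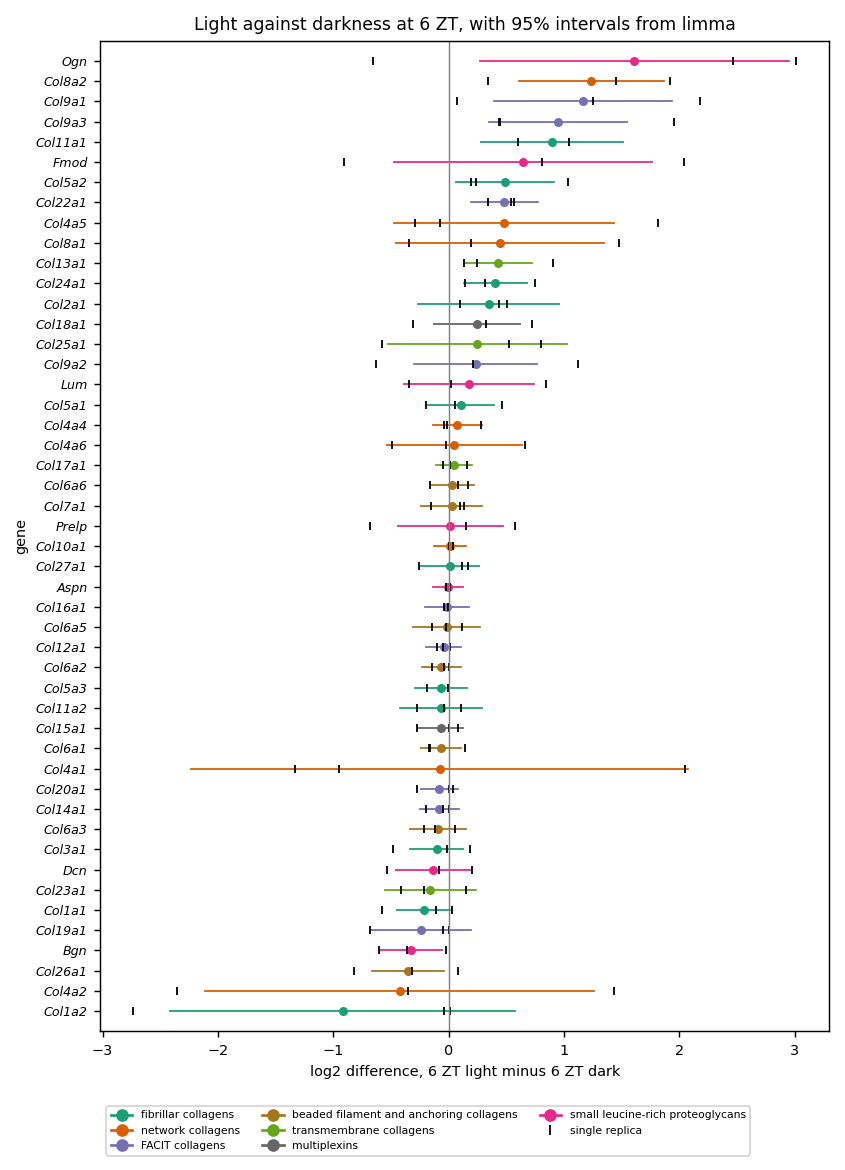
Light minus darkness at 6 ZT (log2) for the 48 genes, in order of size. Points are limma estimates, lines their 95% intervals, colours the gene groups, and ticks the differences within the 3 replicas. Ogn stands at 1.61 with a wide interval, and the 3 replicas of Col4a1, Col4a2 and Col1a2 lie far apart.

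Over the morning in darkness the balance lay the other way. In 6 ZT dark against 0 ZT dark, 6 members stood lower at an unadjusted p under 0.05 and none stood higher, 12.5% against 5.26% of all probe sets for the lower side and 0 against 3.47% for the higher side. They were Col9a3, Col9a1, Col8a2, Ogn, Col24a1 and Col5a2. Both comparisons at 6 ZT share the 6 ZT dark arrays, so a low value there enters both with opposite sign. The count of 6 became 1 without 6 ZT dark replica 1 (5.14% of all probe sets) and 10 without 6 ZT dark replica 2 (3.07%). It was 3 without replica 1 of 0 ZT dark (3.72%) and without its replica 3 (3.71%). A ratio to 0 ZT dark below 0.7 in all 3 replicas, the rule of the study's methods, was met by Ogn at 3 ZT dark and by Col9a1 at 6 ZT dark, whereas no member exceeded 1.6 in all 3. The rule was met downward by 0.0161% of all probe sets at 3 ZT dark and by 0.287% at 6 ZT dark, and upward by 0 and 0.0644%. No member met it in the other comparisons, in which few probe sets did. The shares above 1.6 and below 0.7 were 0.058% and 0.0741% in 3 ZT light and 0.0709% and 0.0709% in 6 ZT light, both against 0 ZT dark. For light against darkness they were 0.0161% and 0.0322% at 3 ZT and 0.0548% and 0.0387% at 6 ZT. Fewer cells of a type and less RNA per cell cannot be told apart in RNA from whole retinas.

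The direction alone was counted too. Against 0 ZT dark, 12 members (25.0%) were lower in all 3 replicas of 6 ZT dark, where 15.1% of all probe sets were, and 4 (8.33%) were higher, where 15.5% were. At 3 ZT dark 9 were lower (18.8% against 8.52%) and 0 higher (7.78%), and at 3 ZT light 9 were lower (18.8% against 11.0%) and 0 higher (11.8%). At 6 ZT light 3 were higher (6.25% against 12.3%) and 3 lower (6.25% against 9.38%). These comparisons share the 0 ZT dark arrays. For light against darkness at 6 ZT, 9 were higher in all 3 replicas, a share of 18.8% close to the 17.2% of all probe sets, and Bgn alone was lower (2.08% against 13.5%). At 3 ZT 3 were higher (6.25% against 7.71%) and 7 lower (14.6% against 9.43%).

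**Figure D2:**
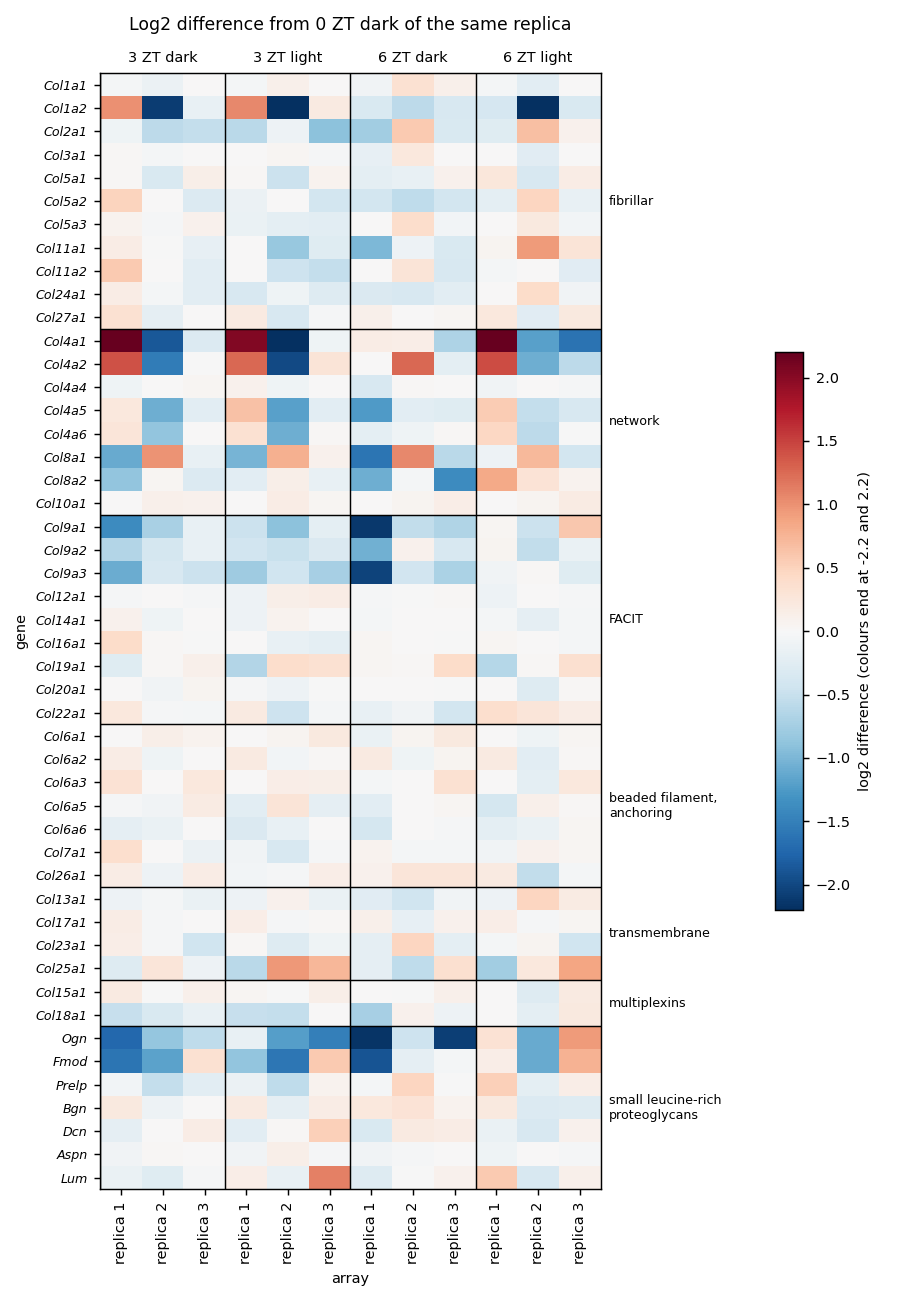
Log2 difference from the 0 ZT dark array of the same replica for the 48 genes (rows, by gene group) on the other 12 arrays (columns, by condition). Blue is lower and red higher than 0 ZT dark. Ogn, Fmod and the type IX chains are blue in 6 ZT dark replica 1, and Col4a1, Col4a2 and Col1a2 are red in replica 1 and blue in replica 2 at 3 ZT.

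Ogn codes for osteoglycin, also called mimecan, a proteoglycan of the corneal and scleral stroma that regulates fibril assembly. The gene lies on chr17:15238500-15259167 of GRCr8, minus strand. It is shown with the bases upstream of its annotated span (chr17:15259168-15259245), because it had the largest difference of all 48 genes and is 1 of the 5 members with a TATA box. Printed stretches leave out bases inside the gene's annotated span, so that this one has 78 bases and that of Col8a2 235. The stretch of Ogn also lies within the span of Cenpp. Capitals mark TATAAA and its reverse complement TTTATA, which overlap.
Ogn: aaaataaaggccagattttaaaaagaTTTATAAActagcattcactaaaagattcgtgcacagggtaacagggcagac

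The log2 value of Ogn at 0 ZT dark was 11.68, 11.80 and 9.97 in replicas 1 to 3. At 6 ZT dark it was 9.53, 11.35 and 7.90, and at 6 ZT light 11.99, 10.70 and 10.91. Replicas 1 and 3 were low in darkness and high in light, replica 2 ran the other way, and the ranges of the dark and light groups overlapped. The difference between 6 ZT light and 6 ZT dark was 2.47, -0.65 and 3.02 within the replicas, with a limma estimate of 1.61 (95% interval 0.27 to 2.95, unadjusted p = 0.0230, adjusted p = 0.550). All 4 probe sets of Ogn gave a positive estimate, from 1.21 to 1.61. In 6 ZT dark against 0 ZT dark the estimate was -1.56 (95% interval -2.90 to -0.22, limma adjusted p = 0.537), lower in 3 of 3 replicas. The 3 ZT dark values were 9.96, 10.96 and 9.40, with ratios to 0 ZT dark of 0.304, 0.555 and 0.677 (mean 0.512 ± 0.190 SD, n = 3). The 3 ZT light values were 11.51, 10.60 and 8.46, an estimated difference of 0.08 from 3 ZT dark.

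Fmod codes for fibromodulin, which binds fibrillar collagen and slows fibril growth. At 0 ZT dark its log2 value was 10.47, 10.14 and 9.14, at 6 ZT dark 8.57, 9.94 and 9.09, and at 6 ZT light 10.61, 9.03 and 9.90. Replica 2 again ran against the other two, as in Ogn, and the groups overlapped. The estimate for light against darkness at 6 ZT was 0.65 (95% interval -0.47 to 1.77, limma adjusted p = 0.709), from 2.04, -0.91 and 0.81 within the replicas. It was 0.16 without 6 ZT dark replica 1 and 1.20 without 6 ZT dark replica 2.

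The other 5 proteoglycans had smaller differences. Among them Aspn, Dcn and Lum were dim, with mean log2 values of 5.135, 5.949 and 4.70 against a median of 8.57 over all probe sets. Bgn, coding for biglycan, was 8.07, 8.65 and 8.12 at 6 ZT dark and 8.05, 8.05 and 7.76 at 6 ZT light. It was lower in 3 of 3 replicas, by 0.02 in replica 1, and the difference was -0.33 (95% interval -0.60 to -0.06, limma adjusted p = 0.550). Decorin (Dcn), the main proteoglycan of fibrous connective tissue, differed by -0.14 (-0.46 to 0.18) and lumican (Lum), a proteoglycan of the corneal stroma, by 0.18 (-0.39 to 0.74). Prelp, which anchors basement membranes to connective tissue, differed by 0.02 (-0.44 to 0.47) and asporin (Aspn) by -0.01 (-0.14 to 0.12). The signs of Aspn and Prelp were not stable, as Aspn was 0.03 and Prelp -0.03 after quantile normalization. Lum was the member with the highest light estimate at 3 ZT, 0.51 (95% interval -0.05 to 1.07). Its values there were 4.56, 4.66 and 5.81 in light and 4.28, 4.55 and 4.68 in darkness, so that replica 3 carried most of the difference.

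**Figure D3:**
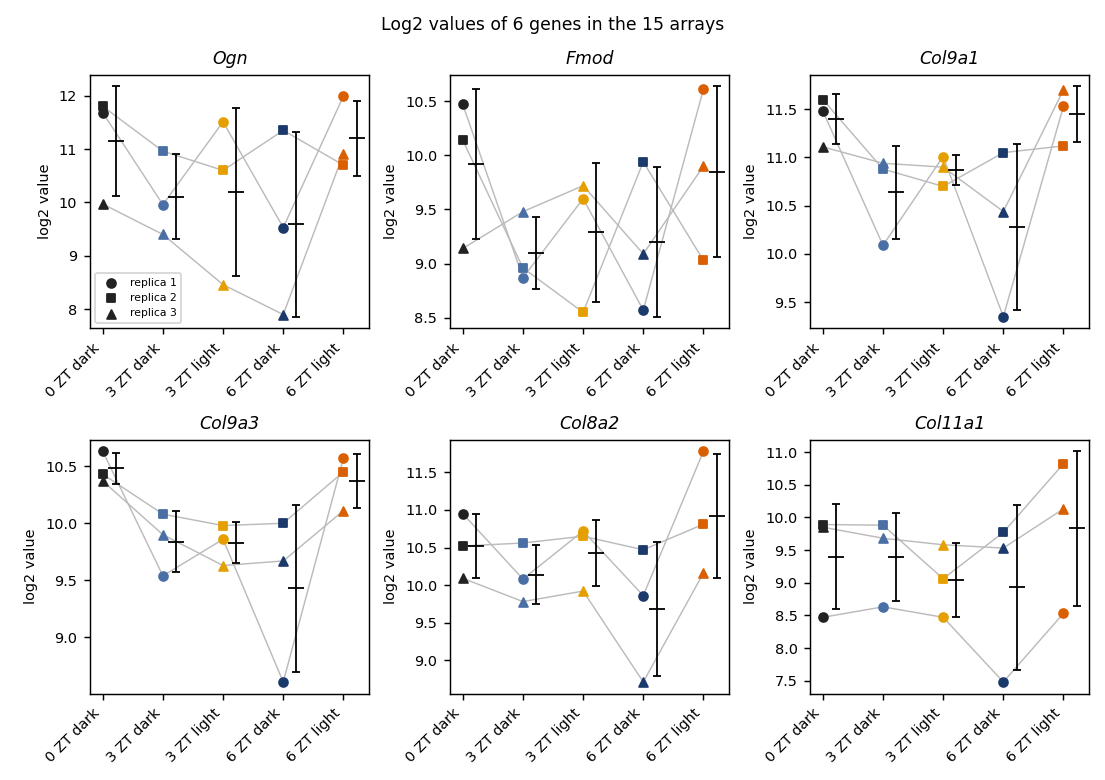
Log2 value of Ogn, Fmod, Col9a1, Col9a3, Col8a2 and Col11a1 on the 15 arrays by condition. Symbols are the 3 replicas, grey lines join a replica number, and black bars give the mean and SD. The 6 ZT dark group has the lowest mean of the 5 in each panel but Fmod, where 3 ZT dark is lower.

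The type IX chains, which with type II collagen build the fibrils of the vitreous and of cartilage, are described next. Col9a1 lies on chr9:34081364-34164552 of GRCr8. Its upstream bases (chr9:34081114-34081363, plus strand) are shown as the contrast to the genes with boxes, since none of the 6 motifs searched is in them.
Col9a1: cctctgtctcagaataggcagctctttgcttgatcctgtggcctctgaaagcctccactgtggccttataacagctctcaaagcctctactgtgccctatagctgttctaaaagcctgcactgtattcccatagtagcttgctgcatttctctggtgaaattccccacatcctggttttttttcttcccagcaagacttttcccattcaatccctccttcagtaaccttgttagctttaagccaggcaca

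Col9a1 had log2 values of 11.48, 11.60 and 11.11 at 0 ZT dark, 9.35, 11.05 and 10.44 at 6 ZT dark and 11.53, 11.12 and 11.70 at 6 ZT light. The 3 values at 6 ZT dark lay below every value of the other 2 groups. At 3 ZT they were 10.09, 10.88 and 10.94 in darkness and 11.01, 10.70 and 10.90 in light, all under the 0 ZT dark range. The difference between light and darkness at 6 ZT was 2.18, 0.08 and 1.25 within the replicas, estimated at 1.17 (95% interval 0.40 to 1.94, unadjusted p = 0.00678, limma adjusted p = 0.508). Against 0 ZT dark the 6 ZT dark estimate was -1.12 (95% interval -1.89 to -0.35, limma adjusted p = 0.496), with ratios of 0.229, 0.682 and 0.631 (mean 0.514 ± 0.248 SD, n = 3). After cyclic loess or quantile normalization Col9a1 no longer met the ratio rule.

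Col9a3 was 10.63, 10.43 and 10.37 at 0 ZT dark, 9.54, 10.08 and 9.90 at 3 ZT dark and 9.86, 9.98 and 9.63 at 3 ZT light. At 6 ZT it was 8.61, 10.00 and 9.67 in darkness and 10.57, 10.45 and 10.11 in light. The 0 ZT dark values lay above all of the 3 ZT and 6 ZT dark values, and the 6 ZT light values above all 6 ZT dark values. Light against darkness at 6 ZT was 0.95 (95% interval 0.35 to 1.55, limma adjusted p = 0.508), higher in 3 of 3 replicas. At 3 ZT, Col9a3 was the single member below 0 ZT dark with an unadjusted p under 0.05, both in darkness (-0.64, where 0.776% of all probe sets were lower) and in light (-0.65, where 4.43% were). No member was higher, against 0.477% and 3.25% of all probe sets. Both comparisons share the 0 ZT dark arrays, so a high value there lowers both. Without 0 ZT dark replica 1, an array with the large Actb difference, the estimates of Col9a3 were -0.45 and -0.46. Without 6 ZT dark replica 1 the light estimates at 6 ZT were 0.53 for Col9a3 and 0.73 for Col9a1. For Col9a2, the remaining chain, the values were 9.10, 10.13 and 9.75 at 6 ZT dark and 10.22, 9.50 and 9.97 at 6 ZT light. The replicas of Col9a2 disagreed in sign, with an estimate of 0.24 (95% interval -0.30 to 0.77).

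Among the other FACIT collagens, Col22a1, a chain of tissue junctions such as those of muscle and tendon, was 7.15, 8.40 and 7.94 at 6 ZT dark and 7.69, 8.75 and 8.51 at 6 ZT light. The 3 replicas agreed closely, by 0.54, 0.34 and 0.57, although the group ranges overlapped. The estimate was 0.48 (95% interval 0.20 to 0.77, unadjusted p = 0.00376, limma adjusted p = 0.508). Col16a1 was lower in light than in darkness at 3 ZT in 3 of 3 replicas, by -0.26 (limma adjusted p = 0.895), and its 6 ZT difference was -0.01. Of the 9 FACIT genes measured, 4 stood above 0 and 5 below at 6 ZT, with 3 of the former at an unadjusted p under 0.05.

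Col8a2 codes for a chain of type VIII collagen, the hexagonal lattice of Descemet's membrane under the corneal endothelium, which is also found in vessels. It lies on chr5:143870754-143897372. The bases upstream (chr5:143870519-143870753, plus strand, GRCr8) are shown because Col8a2 had the lowest p of the 48 genes; capitals mark the GC box GGGCGG and its reverse complement CCGCCC, and the stretch is 71.9% G and C.
Col8a2: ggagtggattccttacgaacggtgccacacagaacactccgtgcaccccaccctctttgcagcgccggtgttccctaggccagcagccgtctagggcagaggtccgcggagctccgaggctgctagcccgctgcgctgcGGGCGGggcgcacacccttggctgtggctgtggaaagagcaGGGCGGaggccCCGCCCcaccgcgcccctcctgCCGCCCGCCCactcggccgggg

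The log2 value of Col8a2 was 10.95, 10.52 and 10.09 at 0 ZT dark, 9.86, 10.47 and 8.71 at 6 ZT dark and 11.78, 10.81 and 10.16 at 6 ZT light. Light exceeded darkness in every replica, by 1.92, 0.35 and 1.45, while the ranges overlapped because replica 2 was high in darkness. The estimate was 1.24 (95% interval 0.61 to 1.87, unadjusted p = 0.00130, limma adjusted p = 0.440). At 3 ZT the values were 10.08, 10.56 and 9.78 in darkness and 10.72, 10.65 and 9.92 in light, an estimate of 0.29. In 6 ZT dark against 0 ZT dark the estimate was -0.84 (95% interval -1.47 to -0.21, limma adjusted p = 0.523). Col10a1, the type X chain of growing cartilage, differed by 0.01 at 6 ZT and had 2 of its 3 replicas at exactly 0.

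Type IV collagen builds the basement membranes of vessels, of the inner limiting membrane and of the lens capsule, and its main chains are Col4a1 and Col4a2. These genes lie head to head on chromosome 16, and the 76 bases between their annotated ends (chr16:84885521-84885596, plus strand, GRCr8) are shown as the stretch from which both genes start; capitals mark the GC box in reverse complement, CCGCCC.
Col4a2 and Col4a1: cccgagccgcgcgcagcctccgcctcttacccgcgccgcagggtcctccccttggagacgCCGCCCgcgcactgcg

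Col4a1 was 8.25, 11.59 and 9.70 at 0 ZT dark and 10.47, 9.73 and 9.40 at 3 ZT dark. At 3 ZT light it was 10.28, 8.20 and 9.61, at 6 ZT dark 8.42, 11.73 and 9.02, and at 6 ZT light 10.47, 10.40 and 8.07. Against 0 ZT dark, replica 1 was higher by over 2 log2 units at 3 ZT dark, 3 ZT light and 6 ZT light, while replica 2 was lower at those same conditions. Light against darkness at 6 ZT was 2.05, -1.33 and -0.95, estimated at -0.08 (95% interval -2.23 to 2.08). Col4a2 was 8.87, 12.38 and 9.74 at 6 ZT dark and 10.31, 10.02 and 9.39 at 6 ZT light, an estimate of -0.42 (-2.11 to 1.26). Without 6 ZT dark replica 2 both signs turned, to 0.78 for Col4a1 and 0.58 for Col4a2, and without 6 ZT light replica 3 that of Col4a1 was 0.57. The second probe set of Col4a1 gave -0.16. With intervals this wide, a difference of 1 log2 unit either way in Col4a1 or Col4a2 was not detectable. Col4a4, another type IV chain, was named after its values were seen. Its replicas lay closer together than those of Col4a1 and Col4a2. They were 7.03, 7.64 and 7.58 in 6 ZT dark and 7.31, 7.62 and 7.55 in 6 ZT light.

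Type I, III, V and XI collagens form fibres. Col11a1, a chain that starts thin fibrils of the vitreous and of cartilage, lies on chr2:204509136-204702264. Its upstream bases (chr2:204508886-204509135, plus strand, GRCr8) are shown since 2 of its probe sets had a similar difference; capitals mark the CCAAT box, here as its reverse complement ATTGG, and the GC box GGGCGG.
Col11a1: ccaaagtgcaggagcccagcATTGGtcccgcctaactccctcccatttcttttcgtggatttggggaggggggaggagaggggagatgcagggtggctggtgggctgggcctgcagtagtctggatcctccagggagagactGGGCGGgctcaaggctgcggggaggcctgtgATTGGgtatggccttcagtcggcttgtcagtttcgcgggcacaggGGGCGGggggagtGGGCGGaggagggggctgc

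Col11a1 had log2 values of 8.47, 9.89 and 9.85 at 0 ZT dark, 7.48, 9.77 and 9.53 at 6 ZT dark and 8.53, 10.82 and 10.13 at 6 ZT light. At 6 ZT light exceeded darkness by 1.05, 1.05 and 0.60 within the replicas, a narrow spread for an effect of this size, although the group ranges overlapped. The estimate was 0.90 (95% interval 0.28 to 1.52, unadjusted p = 0.00837, limma adjusted p = 0.508). The second probe set gave 1.00, and the dimmest of the 3 gave -0.05. At 3 ZT the values were 8.63, 9.88 and 9.68 in darkness and 8.47, 9.06 and 9.58 in light, an estimate of -0.36 that was lower in 3 of 3 replicas. With the ratio limit at 1.5, Col11a1 was the single member past the rule for light against darkness at 6 ZT. The share of all probe sets past that limit was not computed.

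Col5a2, which regulates the width of type I fibres, was 5.60, 7.12 and 6.93 at 6 ZT dark and 5.80, 8.16 and 7.17 at 6 ZT light. It was higher in 3 of 3 replicas, mostly through replica 2, with an estimate of 0.49 (95% interval 0.06 to 0.92, limma adjusted p = 0.553), and its second probe set gave 0.31. Col24a1, a minor fibrillar chain of bone and cornea, was 5.98, 7.59 and 7.31 at 6 ZT dark and 6.30, 8.34 and 7.45 at 6 ZT light, an estimate of 0.41 (95% interval 0.13 to 0.68, limma adjusted p = 0.508). Col2a1, the main chain of vitreous and cartilage fibrils, was 9.13, 10.72 and 10.11 in darkness and 9.64, 10.82 and 10.55 in light. All 3 replicas of Col2a1 were higher in light, by 0.51, 0.10 and 0.44, and the interval of the estimate, 0.35, included 0 (-0.26 to 0.96). The estimate was 0.08 without 6 ZT dark replica 1 and 0.63 without 6 ZT dark replica 2. Its 3 probe sets gave 0.35, 0.03 and 0.67.

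Col1a1, a chain of the type I fibres of skin, bone and sclera, was 7.17, 8.07 and 7.72 at 6 ZT dark and 7.20, 7.49 and 7.61 at 6 ZT light, a difference of -0.22 (95% interval -0.44 to 0.01, limma adjusted p = 0.590). Col3a1 of type III fibres differed by -0.10 (-0.33 to 0.13), and its sign was positive (0.01) with array quality weights. Col1a2, the partner of Col1a1 in type I collagen, was 6.74, 9.06 and 6.51 in darkness and 6.70, 6.33 and 6.53 in light, so the estimate of -0.92 (95% interval -2.41 to 0.58) came from replica 2. Without 6 ZT dark replica 2 it was -0.27. The 0 ZT dark value of Col1a2 was likewise high in replica 2, at 9.64 against 7.07 and 6.87, and the second probe set repeated the pattern with -1.15.

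Among the remaining groups, the transmembrane chain Col13a1, which sits at cell junctions, was 5.10, 5.61 and 5.92 at 6 ZT dark and 5.23, 6.52 and 6.17 at 6 ZT light. It was higher in 3 of 3 replicas, and the estimate was 0.43 (95% interval 0.14 to 0.72, limma adjusted p = 0.508). Col18a1, the basement membrane collagen that yields endostatin, was 9.26, 9.13 and 8.98 at 0 ZT dark, 8.53, 9.23 and 8.87 at 6 ZT dark and 9.26, 8.92 and 9.19 at 6 ZT light, with an estimate of 0.25 for light at 6 ZT (-0.13 to 0.62). It was 0.05 without 6 ZT dark replica 1 and 0.47 without 6 ZT dark replica 2. Its 2 probe sets gave 0.25 and 0.22. The type VI chains, which form beaded filaments around cells, differed by -0.07 for Col6a1 (-0.24 to 0.11) and -0.06 for Col6a2 (-0.23 to 0.11). Col26a1 was 7.11, 7.70 and 7.46 in darkness and 7.19, 6.88 and 7.14 in light, lower in 2 of 3 replicas, and differed by -0.35 (95% interval -0.66 to -0.04, limma adjusted p = 0.559). Without 6 ZT light replica 2 it was -0.17.

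After 3 hours of light, 3 members stood lower than in 3 ZT dark with an unadjusted p under 0.05 (Col16a1, Col11a2 and Col5a3), 6.25% against 2.64% of all probe sets, and no member stood higher (1.96%). Col11a2, another type XI chain, was 9.12, 8.94 and 9.35 in darkness and 8.55, 8.49 and 9.07 in light, lower in 3 of 3 replicas with an estimate of -0.43 (limma adjusted p = 0.895). Col5a3, a minor type V chain, differed by -0.25 (limma adjusted p = 0.895) and Col7a1, of the anchoring fibrils of epithelia, by -0.23. In 6 ZT light against 0 ZT dark no member reached an unadjusted p of 0.05 (3.92% of all probe sets stood higher and 2.26% lower). There Ogn differed by 0.05, Col9a1 by 0.05, Col9a3 by -0.10 and Col8a2 by 0.40. The same 4 genes differed from 0 ZT dark by -0.96, -0.52, -0.65 and -0.09 at 3 ZT light.

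The difference between the light effects at 6 ZT and at 3 ZT was tested directly. No member passed the adjusted test, the lowest adjusted p by limma being 0.776. At an unadjusted p under 0.05, 6 members had a larger effect at 6 ZT, 12.5% against 4.14% of all probe sets, and none a smaller one (1.81%). They were Col24a1 (0.62), Col22a1 (0.64), Col11a1 (1.26), Col5a2 (0.74), Col9a3 (0.96) and Col8a2 (0.95), each in the same direction in 3 of 3 replicas. The count was 4 without 3 ZT light replica 2, an array with the large Actb difference (3.89% of all probe sets), and 10 without 6 ZT dark replica 2 (3.57%). Ogn had the largest such difference, 1.53, and did not reach that p.

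There were 9 pairs of members that lie near each other on one chromosome, at most 102 kb apart, some with like and some with unlike differences. Whether other genes lie between them was not checked. Ogn and Aspn lie 27.2 kb apart on chromosome 17, and light against darkness at 6 ZT was 1.61 for the former and -0.01 for the latter. Col9a1 and Col19a1, 5.7 kb apart on chromosome 9, had 1.17 and -0.24. Col5a2 and Col3a1, 38.2 kb apart, had 0.49 and -0.10, and Fmod and Prelp, 102 kb apart, had 0.65 and 0.02. Dcn and Lum, 37.3 kb apart, had -0.14 and 0.18, and Col4a6 and Col4a5, 1.26 kb apart, had 0.05 and 0.48. The other, dimmer probe set of Col4a6 gave 0.56, so the contrast with Col4a5 depends on the probe set. Col6a1 and Col6a2 had -0.07 and -0.06, and Col6a6 and Col6a5 had 0.03 and -0.02. Col4a2 and Col4a1 had -0.42 and -0.08, each with the wide interval given above. Several of these genes were dim, with mean log2 values of 5.135 (Aspn), 6.888 (Col19a1), 5.844 (Col3a1), 5.949 (Dcn) and 4.70 (Lum). The median of all probe sets was 8.57, so a change in these genes may be missed. Col5a2, at 6.90, was dim too. No pair was tested for its difference. RefSeq promoters were found for 36 of the 48 genes and for 27457 genes in all, and motifs were searched in the 250 bases upstream of the start in each, including bases not printed above. The GC box GGGCGG, on either strand, was in 19 of the 36 (52.8%) against 32.4% of all promoters, and CCAAT was in 11 (30.6%) against 34.3%. TATAAA was in 5 (13.9%) against 13.1%, the nuclear receptor core AGGTCA in 3 (8.33%) against 13.7%, and the SOX core ACAAAG in 3 (8.33%) against 4383 of the 27457. The E-box CACGTG of clock genes was in none, against 5.79%. Of the genes shown above, Col8a2, Col11a1, Col4a1 and Col4a2 hold the GC box, and Ogn and Col9a1 do not.

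The genes that make, cross-link, bind and break down collagen were followed beside the 48. None of them passed the adjusted test in 6 ZT light against 6 ZT dark. Their counts at an unadjusted p under 0.05 stand beside 5.56% of all probe sets higher and 2.97% lower. Of 23 measured genes of collagen synthesis and cross-linking, 1 was higher at an unadjusted p under 0.05, Loxl1 (0.63), an elastin and collagen cross-linking oxidase, and 1 was lower, P4ha3 (-0.28), a prolyl hydroxylase. P3h3, another prolyl hydroxylase, differed by 0.50 and Colgalt2, a collagen galactosyltransferase, by 0.26. Of 32 matrix partners 5 were higher and none lower. They were Efemp2 (0.32) and Fbln5 (0.49), both of elastic fibre assembly, the vitreous proteoglycan Vcan (1.02), the basement membrane linker Nid2 (0.94) and the microfibril gene Fbn1 (1.61). Within the replicas Fbn1 differed by 3.32, -0.59 and 2.08, the order of signs seen in Ogn and Fmod. Of 21 genes of matrix breakdown, Adamts5 (0.57), an aggrecan protease, and Timp3 (0.61), a protease inhibitor of Bruch's membrane, were higher and Mmp8 (-0.22), a collagenase, was lower, while Ctsk, a collagen-degrading protease, differed by 0.19. Of 18 collagen receptors and TGF-beta genes, the ligand Tgfb2 (0.46) and its latency binding protein Ltbp1 (0.48) were higher, whereas Tgfbr3 differed by -0.17 and Smad4 by 0.27.

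Markers of other cell types were read on the same arrays, and none passed the adjusted test in 6 ZT light against 6 ZT dark (lowest adjusted p by limma 0.440). Of all probe sets, 5.56% were higher and 2.97% lower at an unadjusted p under 0.05. Of 17 markers of the pigment epithelium, 16 stood higher in 6 ZT light than in 6 ZT dark and 8 did so at an unadjusted p under 0.05, with a median of 0.58. Lrat, Rgr, Dct and Stra6, of the visual cycle, melanin synthesis and retinol uptake, had the lowest p, with 1.43, 0.86, 0.71 and 0.91. The mean log2 value over the list was 10.32 to 11.01 at 6 ZT dark and 10.84 to 11.45 at 6 ZT light, and light minus darkness was 1.00, 0.02 and 0.52 in the 3 replicas. The mean over Ogn, Col8a2, Col9a1, Col9a3 and Col11a1, a set chosen after their values were seen, was 1.91, 0.25 and 1.35. At 6 ZT both were smallest in replica 2. At 3 ZT they were unlike, as the set differed from 0 ZT dark by -0.98, -0.38 and -0.34 in darkness and by -0.33, -0.65 and -0.58 in light, and the pigment epithelium markers by -0.31, 0.34 and 0.03 and by -0.03, 0.10 and 0.19. Lens markers ran the other way, with all 17 below their 6 ZT dark level in 6 ZT light, 6 at an unadjusted p under 0.05, with a median of -1.64 and Bfsp1 (-1.56), Crygd (-1.50), Crygc (-1.92) and Crygb (-1.72) leading. Their mean was 12.04 to 12.67 at 6 ZT dark and 8.99 to 11.87 at 6 ZT light. At 3 ZT light the lens mean differed from 0 ZT dark by 1.83, -1.60 and 0.06, and that of Col4a1, Col4a2 and Col1a2, also chosen after their values were seen, by 1.45, -2.67 and 0.13. At 6 ZT these were unlike. Light minus darkness was -1.05, -0.79 and -3.14 for the lens mean and 1.15, -2.14 and -0.43 for the set, and 6 ZT dark minus 0 ZT dark was 1.68, 0.86 and 0.66 against -0.05, 0.28 and -0.42. The methods state that lenses were taken out before retinas were collected for PCR, and do not describe the dissection for the arrays. The part of either tissue in the values of the collagens was not tested.

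**Figure D4:**
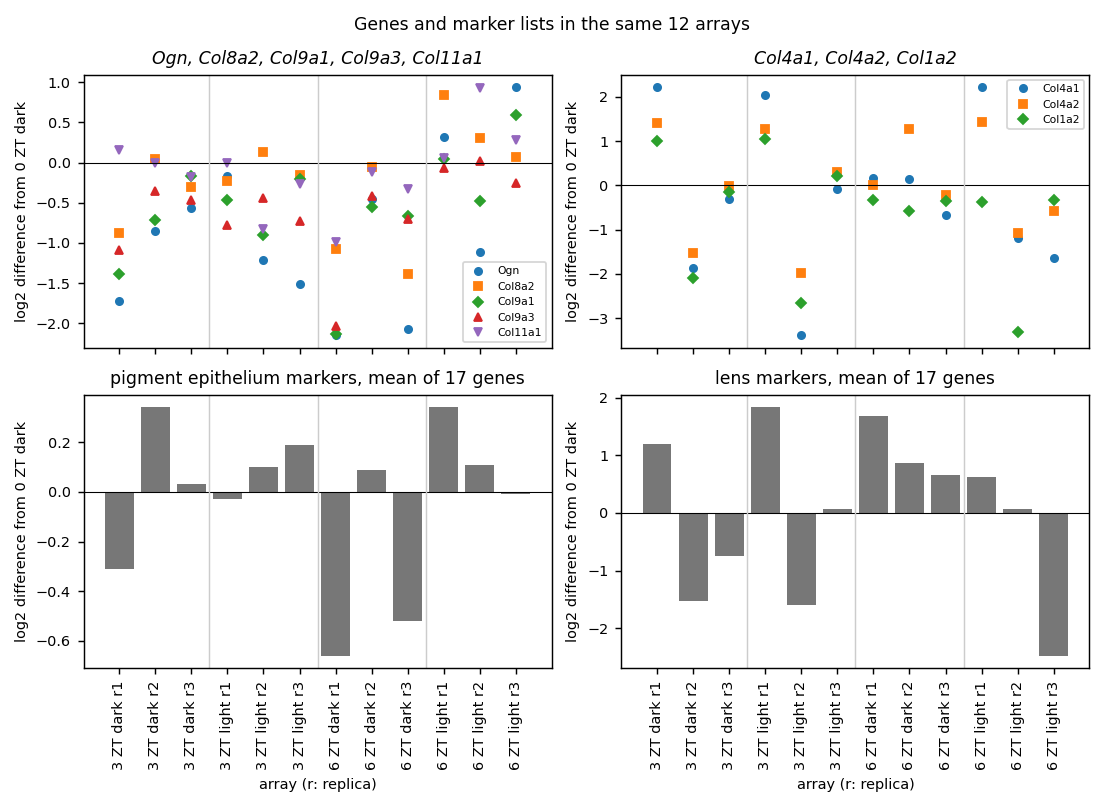
Log2 difference from the 0 ZT dark array of the same replica on the other 12 arrays. Upper panels show Ogn, Col8a2, Col9a1, Col9a3 and Col11a1 (left) and Col4a1, Col4a2 and Col1a2 (right), and lower panels the mean of 17 pigment epithelium and of 17 lens markers. The genes on the left and the pigment epithelium markers are low in 6 ZT dark replicas 1 and 3. Those on the right are high in replica 1 and low in replica 2 at 3 ZT, as the lens markers are. Upper and lower panels are unlike at other points. At 3 ZT light the left set averages -0.33, -0.65 and -0.58 (replicas 1 to 3) against -0.03, 0.10 and 0.19 in the lower panel. At 6 ZT dark the right set averages -0.05, 0.28 and -0.42, against 1.68, 0.86 and 0.66 for the lens markers. Both upper sets were picked with these values already known, and a tissue source was not tested.

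Of 14 fibroblast markers, 3 stood above and 11 below 6 ZT dark in 6 ZT light, with a median of -0.10. The other counts in this paragraph are at an unadjusted p under 0.05, where 5.56% of all probe sets were higher and 2.97% lower. By that measure 0 fibroblast markers were higher and 1 was lower. Tnmd of tendon cells (-0.29), the transcription factors Twist2 (-0.16) and Tcf21 (-0.11) and the collagen-binding Dpt (-0.17) had the lowest p. Fbln1, a fibulin counted among both the fibroblast markers and the matrix partners, differed by 4.57, -2.02 and 3.41 within the replicas. Of 10 cornea and iris markers 1 was lower (Des, of muscle, -0.18), and Krt12, Foxc1 and Krt14 differed by -0.79, -0.07 and -0.09. Of 18 vessel markers 2 were lower (Tie1 of endothelium, -0.23, and Kcnj8 of pericytes, -0.20), and Cnn1 and Cspg4 of mural cells differed by -0.13 and -0.11. Of 13 markers of Müller glia and astrocytes Car14 was higher (0.39), with Aqp4, S100b and Rlbp1 at 0.21, -0.24 and 0.22. Of 25 neural markers Arr3 of cones (0.43), Pde6a of rods (0.22) and Prkca of rod bipolar cells (0.27) were higher, and Pou4f1 of ganglion cells differed by -0.47. None of 8 blood markers reached an unadjusted p of 0.05, and Slc4a1, Alas2, Hbb and Itgam differed by -0.12, 0.44, 0.80 and -0.10.

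With the arrays weighted by their quality, 8 members passed an adjusted p of 0.05 in 6 ZT light against 6 ZT dark. Of these 7 were higher (Ogn 2.67, Col9a1 1.46, Col8a2 1.30, Col11a1 0.88, Col9a3 0.86, Col22a1 0.53 and Col13a1 0.34) and Bgn was lower (-0.35). Of all probe sets, 4.87% passed higher and 2.58% lower in that fit, in which 6 ZT light replica 3 alone had a weight of 7.45. No member passed in any of the other alternatives, among them the fit without the replicate block.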

How the data were processed

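Log2 expression values of 31099 probe sets were deposited for 15 arrays (Affymetrix rat expression arrays). Per the methods, the authors used the Robust Multi-array Average (background correction, quantile normalization and median polish over the probes). The software, and whether the replica numbers were normalized separately, are not given in the sources used here. Arrays hold no read depth, and their number limits the precision. The labels state 6 µg of RNA extracted with Trizol, whereas the study's methods give a larger amount for the arrays and name the RNeasy mini kit.

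Values were used as deposited. The 57 control probe sets were left out. The limma package (3.58.1, R 4.3.3) gave differences, 95% intervals and p-values, with condition and replica number as terms, over 31042 probe sets (Benjamini-Hochberg, threshold 0.05). The replica number was used as a block because in 18 checks arrays of one number deviated together (r from 0.289 to 0.797), which may come from processing and does not show paired animals. The ratio rule of the methods asks for more than 1.6 or less than 0.7 in all 3 replicas. Genes were named from the annotation of the platform (20832 probe sets with 1 symbol, 436 with several, 9831 with none), and all 48 matched RefSeq (GRCr8), the source of positions and promoters. Figures were drawn with matplotlib 3.10.9.

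The members, the 4 lists of matrix genes and the 8 marker lists were chosen with earlier results of these data known. Named were all proteoglycans, the main chains of types I, II, III, IV, VI, IX and XVIII, members past a test or the ratio rule, the 6 of lowest p in each comparison, and the 4 of lowest p in 6 ZT light against 6 ZT dark of each other list. Col26a1, Col9a2, Col4a4, Col4a5, Col4a6, Col6a5, Col6a6, Col19a1, Fbn1 and Fbln1 were named after their values were seen. Alternatives were quantile and cyclic loess normalization, array quality weights, no block, dim probe sets left out, all probe sets averaged, the probe set of largest spread, fewer arrays and other ratio limits. The limma fit was tested on simulated data.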

Additional observations from a re-analysis of the deposited data

How the results depend on the processing

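No member passed an adjusted p of 0.05 in any comparison, with any array left out (0 to 0) or under the alternatives other than array quality weights, under which 8 passed at 6 ZT in light against darkness. Their limma adjusted p then ran from 0.0100 to 0.0489, and over all alternatives the highest of each was 1.0. Without the replicate block no member passed in any comparison. Without the block, 2 members stood lower in 6 ZT dark than 0 ZT dark at an unadjusted p under 0.05 (1.11% of all probe sets), 3 stood higher (0.976%) and 0 lower (0.122%) in 6 ZT light than 6 ZT dark, and 1 had a larger light effect at 6 ZT than at 3 ZT (0.406%). The ratio rule, applied to unpaired values without the block, gave 0 members at 3 ZT dark and 0 at 6 ZT dark. In 6 ZT light against 0 ZT dark it gave 1, Col1a2, below 0.7. In 6 ZT light against 6 ZT dark, 3 members were above 1.6 (Col9a1, Col9a3 and Ogn) and 1 was below 0.7 (Col1a2). The share of all probe sets past this unpaired rule was not computed, so these counts have no background to be read against.

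By the ratio rule, Ogn at 3 ZT dark gave way to a count of 0 when probe sets were averaged, after quantile normalization and at both other limits. Col9a1 at 6 ZT dark gave way to 0 after quantile or loess normalization and at both other limits. At a limit of 1.5, 1 member (Col11a1) passed in 6 ZT light against 6 ZT dark. The shares of all probe sets past the rule under these alternatives were not computed. In 6 ZT dark against 0 ZT dark, 14 members stood lower at an unadjusted p under 0.05 with array weights (7.69% of all probe sets in that fit) and 3 without the arrays of largest Actb difference (5.58%). With dim probe sets left out, 21 members were tested, of which 5 stood higher (6.09% of probe sets) and 0 lower (1.06%) in 6 ZT light than 6 ZT dark, and 3 had a larger light effect at 6 ZT (4.01%). With only the conditions compared, 0 stood lower in 6 ZT light (2.64%). Leaving out an array gave 1 to 10 members lower in 6 ZT dark, 6 to 12 higher and 0 to 3 lower in 6 ZT light than 6 ZT dark, and 4 to 10 with a larger light effect at 6 ZT. The shares of all probe sets were 5.14% and 3.07% at 1 and 10, 4.21% and 3.62% at 6 and 12, and 3.89% and 3.57% at 4 and 10. For 0 lower in 6 ZT light the share was 1.14% to 1.97%, and for 3 lower it was 3.03% and 6.69%.

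The median difference of the members moved when dim probe sets were left out, to -0.108 at 3 ZT dark, -0.178 at 6 ZT dark and -0.258 at 3 ZT light against 0 ZT dark, to 0.248 for light against darkness at 6 ZT and to 0.368 for the difference of light effects. At 3 ZT the median for light against darkness was 0.038 with array weights and 0.022 without the Actb arrays. With an array left out the medians ran from -0.08 to -0.008 (3 ZT dark), -0.166 to 0.017 (6 ZT dark), -0.138 to -0.014 (3 ZT light) and -0.064 to 0.027 (6 ZT light) against 0 ZT dark, and from -0.044 to 0.02 and -0.049 to 0.097 for light against darkness at 3 and 6 ZT, and -0.031 to 0.217 for the difference of light effects.

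Some small differences turned their sign. In 6 ZT light against 6 ZT dark, Aspn was 0.04 after loess, 0.03 after quantile normalization and 0.02 averaged over probe sets, Col3a1 was 0.01 with array weights, Prelp was -0.03 after quantile normalization, and Col6a2 was 0.04 on its probe set of largest spread. Col6a3 at 3 ZT dark was -0.10 on its other probe set. With an array left out the 6 ZT light difference ran from -0.03 to 0.01 (Aspn), -0.22 to 0.02 (Col3a1), -0.82 to 0.78 (Col4a1), -1.14 to 0.58 (Col4a2), -0.11 to 0 (Col6a2), -0.11 to 0.34 (Lum) and -0.16 to 0.30 (Prelp). The cause was not tested in any of these cases. The estimates of Col8a2, Col9a1, Col9a3, Col11a1 and Ogn for light against darkness at 6 ZT stayed above 0 with any array left out. These genes were chosen after the same values were seen, so this lends them no support. Other members kept their sign too, among them Col22a1 (0.41 to 0.61), Fmod (0.16 to 1.20), Col2a1 (0.08 to 0.63) and Bgn (-0.45 to -0.21).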
